A study of Mus musculus with 4 samples.

Results

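Germline genes are transcribed in the testis and ovary and are kept silent in somatic tissues. The 38 genes described here are a hand-picked set of well known members of this class, located by gene symbol in the GENCODE vM21 annotation of the mouse genome build GRCm38, and all 38 were found among its 21938 protein-coding genes on chromosomes 1 to 19, X and Y. Many of them have promoters rich in CpG that carry DNA methylation in somatic cells. UHRF1 binds hemimethylated DNA after replication and brings the maintenance methyltransferase DNMT1 to it, and germline genes of this kind are known to respond when DNA methylation is lost. H2A.Z is a histone variant that is usually found in the nucleosomes flanking unmethylated and active promoters, and open chromatin at a promoter is usually read from its accessibility to the Tn5 transposase. DNA methylation and RNA levels were not analysed here, so the methylated and silent state of these genes is background and was not checked in these livers.

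Accessibility (ATACseq) and H2A.Z occupancy (ChIPseq on chromatin digested with micrococcal nuclease) were profiled in 1 WT liver (Uhrf1 fl/fl, no Cre) and 1 Uhrf1hepKO liver (Uhrf1 fl/fl with Alb:Cre, which deletes Uhrf1 in hepatocytes). Both mice were C57Bl/6 males, 8 to 12 weeks old, and each liver supplied both libraries, so that there were 4 libraries and 1 library per condition. The tissue was whole liver, which also holds other cell types, and the deletion was not measured by cell type here. Fewer cells with an open promoter cannot be told apart from less opening in each cell. With 1 library per condition there was no replicate error. No difference between genotypes was tested, and the counts below describe these 2 livers.

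The deposited lists held 10582 WT and 10764 Uhrf1hepKO ATACseq peaks and 51450 WT and 47135 Uhrf1hepKO H2A.Z peaks on these chromosomes. Total reads were not used here, and the depth is known only through the peaks. Among the H2A.Z peaks whose summit reads could be recovered from the fold, the median was 21 reads in WT and 23 in Uhrf1hepKO, and the lowest had 11 and 12. A peak of 1 genotype without a counterpart was common in every list. Of the Uhrf1hepKO ATACseq peaks, 39.7% did not overlap a WT peak, and 38.7% of the WT peaks did not overlap a Uhrf1hepKO peak. For H2A.Z these shares were 24.4% and 30.0%. The tissue was checked at marker genes. Of 9 hepatocyte marker genes, an ATACseq peak within 1 kb of the 5′ end was called at 1 in WT (Apoa2; 11.1%, against 26.4% of all protein-coding genes) and at 3 in Uhrf1hepKO (Alb, Asgr1 and Cebpa; 33.3% against 24.1%). An H2A.Z peak was called there at 0 in WT, against 46.0% of all genes, and at 2 in Uhrf1hepKO (Asgr1 and Cebpa; 22.2% against 44.5%). No list had a peak within 1 kb of any of 4 Kupffer cell or 4 endothelial markers. Of 4 cholangiocyte markers, Sox9 had a peak in every list but the Uhrf1hepKO ATACseq list, and of 4 stellate cell markers, Dcn had a WT H2A.Z peak. Since Alb had no WT peak of either assay there, the absence of a called peak is not a measurement of closed chromatin.

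The germline promoters were nearly empty of called peaks in both genotypes. A peak was counted at a gene when at least 1 bp of it lay within 1 kb, or 5 kb, of the annotated 5′ end, upstream or downstream. This end is termed the TSS below. Within 1 kb, an ATACseq peak was present at 1 of 38 germline genes in WT (Stag3) and at 1 in Uhrf1hepKO (Dppa3), against 26.4% and 24.1% of all protein-coding genes. Either count is 2.63% of the set, with an exact 95% binomial interval of 0.0666 to 13.8% that covers counting error only and treats genes as independent. H2A.Z peaks within 1 kb were present at 5 genes in WT (Dazl, Tex12, Tex14, Stag3 and Dppa3), which is 13.2% (4.41 to 28.1%) against 46.0% of all genes. In Uhrf1hepKO they were present at 3 genes (Dazl, Tex12 and Tex14), which is 7.89% (1.66 to 21.4%) against 44.5%. The same 5 genes made up all germline genes with a peak of any list within 1 kb, where 49.9% of all protein-coding genes had one.

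Widening the window to 5 kb kept the shares below those of all genes. An ATACseq peak lay within 5 kb of 4 germline genes in WT (Tdrd1, Tdrd9, Slc25a31 and Stag3), which is 10.5% against 30.2% of all genes. In Uhrf1hepKO, 5 genes had one (Tdrd1, Tdrd9, Slc25a31, Spo11 and Dppa3), which is 13.2% against 27.9%. An H2A.Z peak lay within 5 kb of 10 germline genes in WT, 26.3% against 52.8%, and of 8 in Uhrf1hepKO, 21.1% against 51.0%. In all, 11 germline genes had a peak of any list within 5 kb (28.9%, exact interval 15.4 to 45.9%), compared with 57.7% of all genes, and 27 had none. The H2A.Z counts depend on which start is used. With the 5′ end of any annotated transcript in place of that of the gene, they rose to 8 in WT (21.1%, against 49.8% of all genes by the same rule) and 6 in Uhrf1hepKO (15.8% against 48.1%) within 1 kb, and to 16 (42.1% against 56.3%) and 14 (36.8% against 54.4%) within 5 kb. At 5 kb the exact interval for WT, 26.3 to 59.2%, then includes the share of all genes. Brdt and Piwil4 were added within 1 kb in both genotypes and Tex15 in WT. By this rule the ATACseq counts were 1 in each genotype within 1 kb (28.8% of all genes in WT and 26.3% in Uhrf1hepKO), and 4 in WT (10.5% against 32.9%) and 6 in Uhrf1hepKO (15.8% against 30.7%) within 5 kb.

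**Figure D1:**
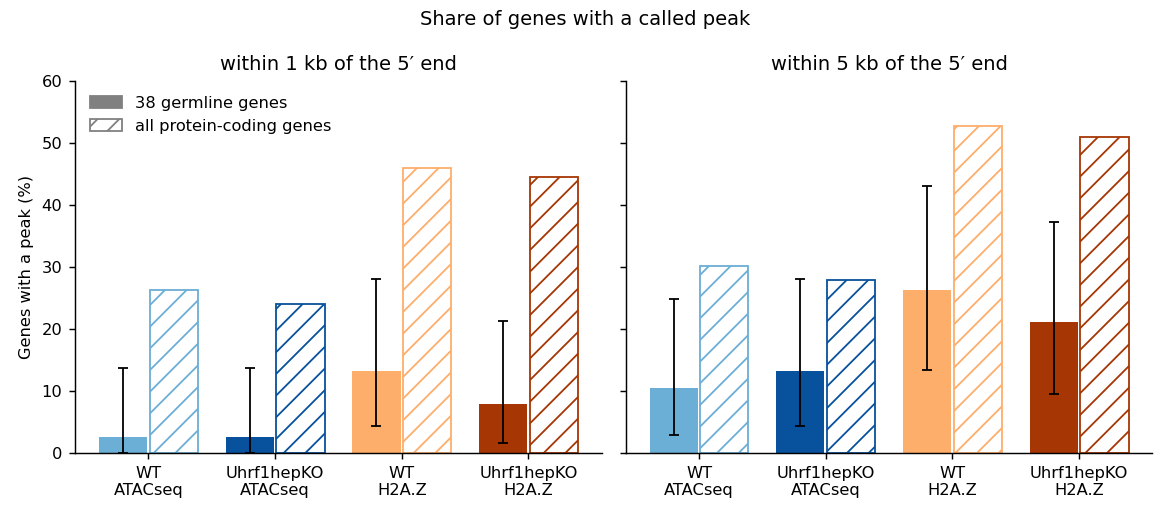
Share of genes (%) with a called peak inside 1 kb (left) and 5 kb (right) of the TSS in each of the 4 peak lists. Filled bars are the 38 germline genes, with exact 95% binomial intervals as error bars, and hatched bars are all 21938 protein-coding genes; the germline share was below the share of all genes in each of the 8 pairs, from 2.63% against 26.4% for WT ATACseq within 1 kb to 26.3% against 52.8% for WT H2A.Z within 5 kb.

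Few germline genes were marked in 1 genotype only, in either direction. Within 1 kb, an ATACseq peak in Uhrf1hepKO only was found at 1 germline gene (Dppa3), where 3.84% of all genes had such a pattern, and a peak in WT only at 1 (Stag3), where 6.16% had it. No germline gene had an ATACseq peak in both genotypes, compared with 20.2% of all genes. For H2A.Z, 0 germline genes had a peak in Uhrf1hepKO only (1.77% of all genes), 2 had one in WT only (Stag3 and Dppa3; 3.30% of all genes) and 3 in both (42.7% of all genes). Within 5 kb, an ATACseq peak was present in Uhrf1hepKO only at 2 genes (Spo11 and Dppa3), against 4.85% of all genes, in WT only at 1 (Stag3), against 7.19%, and in both at 3, against 23.0%. An H2A.Z peak within 5 kb was present in Uhrf1hepKO only at 0 genes, against 2.19%, in WT only at 2 (Hormad1 and Stag3), against 3.95%, and in both at 8, against 48.8%. The counts of peaks in 1 genotype only, 0 to 2 of 38 genes, lie near these background shares and are not a result about the germline genes.

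The median CpG content of the germline promoters was near that of all genes, but the spread was not. The germline genes had a median of 47 CpGs in the 500 bp to each side of the TSS (quartiles 37.2 and 61), from 12 at Piwil1 to 86 at Tdrd5, and all protein-coding genes had a median of 41. Their median GC content was 55.9% against 54.7%. Few germline genes were poor in CpG: 0 had 0 to 9 CpGs, where 4454 of all 21938 protein-coding genes did. At 80 CpGs or more there were 2 germline genes and 3744 of all genes. The shares of all genes given above are therefore not matched for CpG content. Between the germline quartiles lay 4562 protein-coding genes, of which 40.0% had a WT and 36.8% a Uhrf1hepKO ATACseq peak within 1 kb, and 68.8% and 66.8% an H2A.Z peak. Of the 20 germline genes in this range, 0 had an ATACseq peak in either genotype, and 2 had an H2A.Z peak in both WT and Uhrf1hepKO. In the classes from 40 CpGs upward, 22 germline genes had no peak of any list within 1 kb. Among them were Ddx4 with 73 CpGs, Dnajb3 with 71, Sycp1 with 65, and the Tudor domain genes Tdrd5 with 86 and Tdrd6 with 84.

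**Figure D2:**
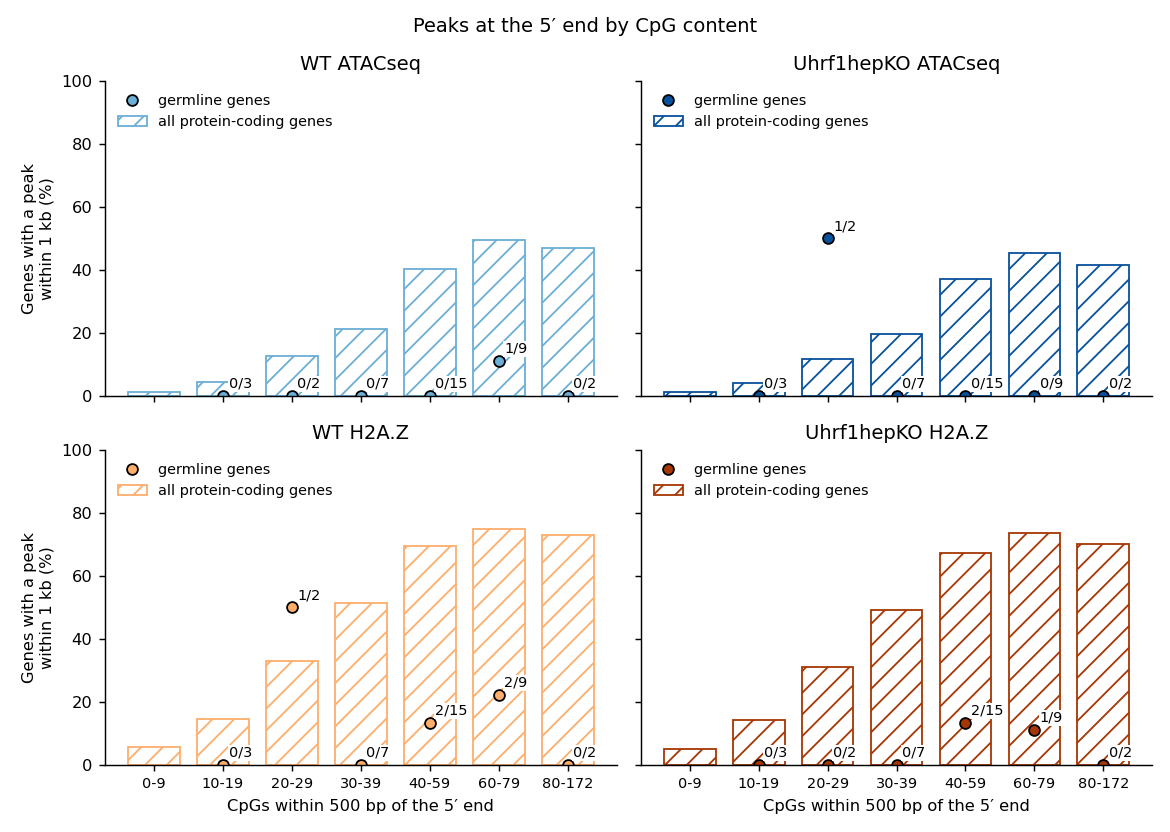
Share of genes (%) that had a peak no more than 1 kb from the TSS, in classes of CpG number (500 bp to each side of the TSS), with 1 panel for each peak list. Hatched bars are all protein-coding genes of the class and points the germline genes, with the number that had a peak over the number in the class; in the class of 40 to 59 CpGs, 40.3% of all genes but 0 of 15 germline genes had a WT ATACseq peak, and 69.4% but 2 of 15 had a WT H2A.Z peak.

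Short sequence elements were then counted in the promoters. E2F6 and the MGA-MAX pair are subunits of a Polycomb repressor complex known to act at germline genes, and they recognise the letters TCCCGC and the E-box CACGTG. RefSeq promoters of GRCm38.p6, each from 250 bases before to 50 after an annotated start, were matched by symbol for 31 germline genes, with 36 promoters in all. Tex11, Tex15, Tdrd6, Piwil2, Rnf17, Spo11 and Dppa3 were not matched. Promoter windows of the same gene overlapped at Hormad1, Stk31 and Tdrd1. Some matches were thus counted more than once in the shares of promoters, which are not independent, while the counts by gene hold each gene once. CACGTG, which reads the same on both strands, was found in the promoters of 15 of the 31 genes, in 50.0% of the 36 germline promoters and in 7.15% of all 32851 promoters. TCCCGC, searched on both strands and thus also as GCGGGA, was found at 14 genes, in 41.7% of germline promoters and 20.0% of all. The 2 motifs can share at most 1 base. Both were found at 8 genes (Ddx4, Mael, Tex12, Sycp1, Sycp3, Hormad1, Slc25a31 and Stag3), in 25.0% of germline promoters and 1.99% of all, and 10 of the 31 genes had neither. Each motif holds a CpG, so its frequency rises with CpG content. Among 4788 promoters with a CpG number between the germline quartiles (15.8 to 24.2 in 300 bases), 10.8% held CACGTG and 37.4% TCCCGC, and of the 18 germline promoters in this range 55.6% and 50.0% did. A match is a description of the sequence and was not measured as a binding site.

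The 4 promoters below, which hold both motifs, are shown 5′ to 3′ on the strand of the gene, with the matches in capitals. Mael encodes a piRNA pathway protein, Sycp3 a lateral element protein of the synaptonemal complex, Slc25a31 a testis ADP/ATP carrier and Stag3 the meiotic cohesin subunit. None of them had a Uhrf1hepKO peak within 1 kb of the TSS.
Mael, chr1:166238695-166238994, minus strand: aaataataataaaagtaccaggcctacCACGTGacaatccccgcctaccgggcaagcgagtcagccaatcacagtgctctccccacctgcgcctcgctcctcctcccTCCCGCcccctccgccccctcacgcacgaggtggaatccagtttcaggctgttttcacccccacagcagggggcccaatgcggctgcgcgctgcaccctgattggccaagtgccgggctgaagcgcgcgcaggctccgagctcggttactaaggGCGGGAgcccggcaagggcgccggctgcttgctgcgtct
Sycp3, chr10:88459337-88459636, plus strand: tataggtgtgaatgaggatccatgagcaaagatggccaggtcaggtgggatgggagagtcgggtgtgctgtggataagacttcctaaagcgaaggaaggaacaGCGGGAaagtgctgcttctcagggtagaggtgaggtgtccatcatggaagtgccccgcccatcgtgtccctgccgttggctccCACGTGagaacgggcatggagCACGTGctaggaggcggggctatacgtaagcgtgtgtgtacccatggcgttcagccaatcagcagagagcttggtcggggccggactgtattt
Slc25a31, chr3:40708621-40708920, plus strand: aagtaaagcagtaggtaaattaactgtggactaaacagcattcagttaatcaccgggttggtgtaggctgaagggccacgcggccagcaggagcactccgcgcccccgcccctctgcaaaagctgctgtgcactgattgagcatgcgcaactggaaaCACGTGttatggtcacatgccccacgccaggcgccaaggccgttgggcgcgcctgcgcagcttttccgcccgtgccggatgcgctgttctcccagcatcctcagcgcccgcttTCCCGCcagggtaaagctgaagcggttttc
Stag3, chr5:138280259-138280558, plus strand: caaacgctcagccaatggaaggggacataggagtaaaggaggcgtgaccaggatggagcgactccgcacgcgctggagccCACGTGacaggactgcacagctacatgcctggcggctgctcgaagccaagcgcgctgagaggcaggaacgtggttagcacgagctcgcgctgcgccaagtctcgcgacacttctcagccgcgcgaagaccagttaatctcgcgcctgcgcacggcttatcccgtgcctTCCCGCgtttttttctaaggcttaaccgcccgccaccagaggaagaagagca

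Of these 8 genes, Tex12 and Stag3 had a peak within 1 kb, Hormad1 and Slc25a31 had peaks between 1 and 5 kb, and Ddx4, Mael, Sycp1 and Sycp3 had none within 5 kb. The starts of the 2 annotations were not the same at every gene. The RefSeq start of Stag3 was 269 bp downstream of the GENCODE TSS, that of Piwil1 was 33722 bp downstream, and that of Mei1 12480 bp downstream.

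By role, the share with a peak of any list within 5 kb was below the 57.7% of all protein-coding genes in each class. Of the 16 genes of germ cell RNA regulation and the piRNA pathway, which silences transposons in germ cells, 3 had such a peak (Dazl, Tdrd1 and Tdrd9; 18.8%). The other 13 had none. They were the helicase gene Ddx4 (vasa), the piRNA pathway genes Mael, Asz1, Tex15, Mov10l1, Rnf17 and Stk31, the Tudor domain genes Tdrd5 and Tdrd6, the Argonaute family genes Piwil1, Piwil2 and Piwil4, and Tex19.1. Of the 14 genes of chromosome synapsis, cohesion and recombination, 5 had one (Tex12, Hormad1, Stag3, Rec8 and Spo11; 35.7%). The 9 without were the synaptonemal complex genes Sycp1, Sycp2, Sycp3 and Syce1, the axis gene Hormad2, the cohesin gene Smc1b, the recombinase gene Dmc1, Mei1 and Tex11. Of the 8 other genes, Tex14, Slc25a31 and Dppa3 had a peak (37.5%), while Tex101, Dpep3, Dnajb3, the testis bromodomain gene Brdt and the TFIID paralogue Taf7l had none.

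**Figure D3:**
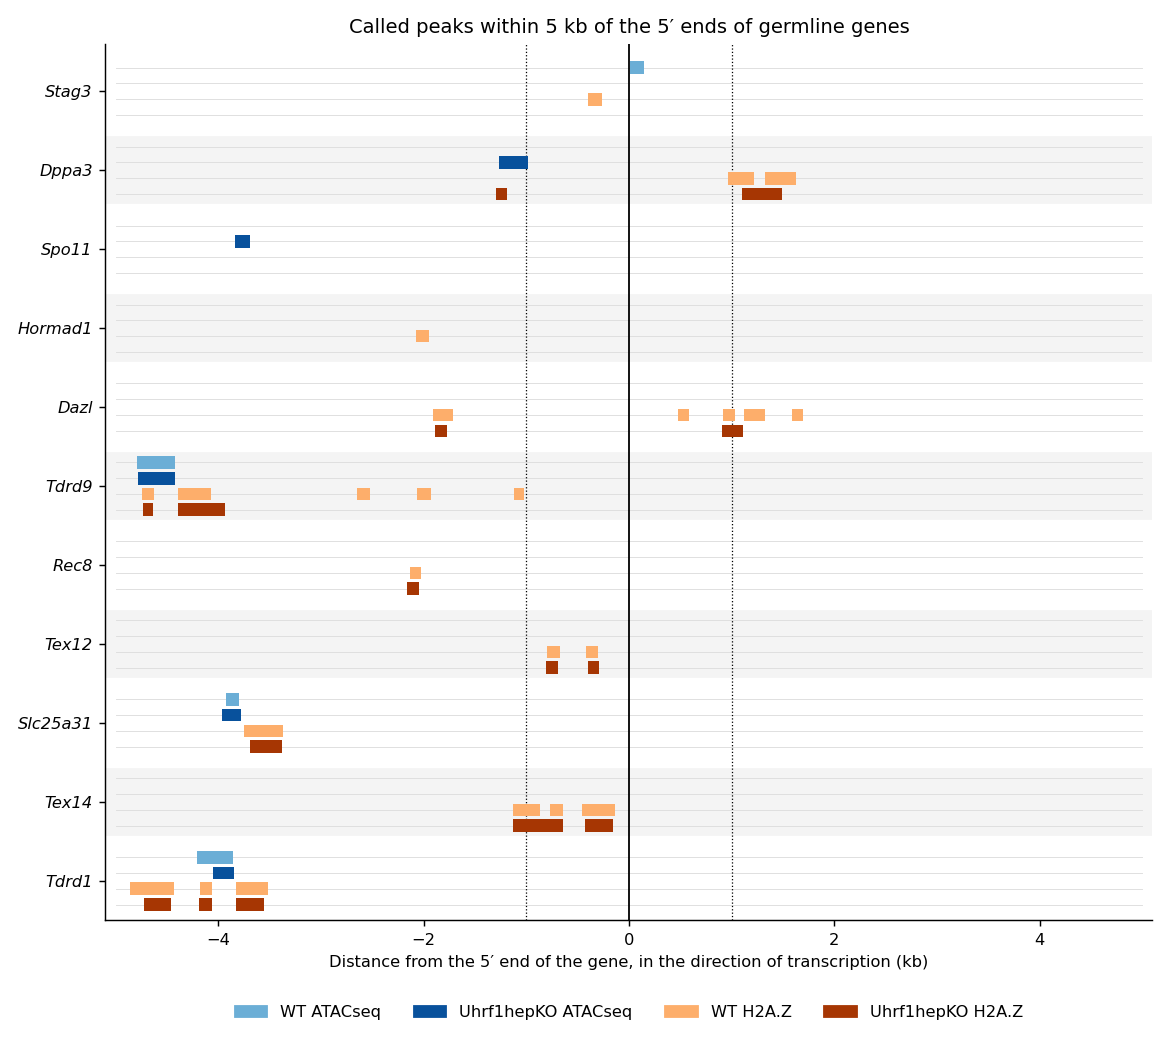
Called peaks within 5 kb of the TSS of the 11 germline genes that had any, drawn as boxes against the distance from the TSS in kb in the direction of transcription. Each gene has 4 lanes, from top to bottom WT ATACseq, Uhrf1hepKO ATACseq, WT H2A.Z and Uhrf1hepKO H2A.Z, the solid line marks the TSS and dotted lines mark 1 kb; the Stag3 peak of the WT ATACseq list, at +78 bp, is the nearest to a TSS of all ATACseq peaks, and no peak crosses a TSS line.

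Stag3 (gene at GRCm38 chr5:138280240-138312393, plus strand) encodes a cohesin subunit specific to meiosis, and it was the only germline gene with an ATACseq peak next to the TSS. The WT list had a peak of 142 bp centred 78 bp downstream of the TSS, in the annotated first part of Stag3 (exonic), with a fold enrichment over background of 4.56 (list median 4.31) and a q-value of 0.000661. The WT H2A.Z list had a peak with its summit 351 bp upstream, with a fold of 4.63 and 18 reads, fewer than the median of 21 among peaks with recovered reads. The Uhrf1hepKO lists had no peak within 10 kb of this TSS in either assay, the nearest ATACseq peak being 24335 bp away and the nearest H2A.Z peak 11470 bp. That H2A.Z peak lay inside Stag3, where Uhrf1hepKO had 2 H2A.Z peaks and WT had 0. With the TSS of any annotated transcript, Stag3 had a Uhrf1hepKO H2A.Z peak within 5 kb. The Stag3 promoter is shared: the genes Gpc2 and Gm43720 start within 5 kb, the nearer TSS 235 bp away, and the H2A.Z summit lay in an exon of both, nearer to Gm43720 than to Stag3. Of all 21938 protein-coding genes, 24.4% had both an ATACseq and an H2A.Z peak within 1 kb in WT, and Stag3 was the only germline gene that did. The sequence of the WT ATACseq peak follows (GRCm38, plus strand), with its 9 CpGs in capitals. It holds CACGTG once, which is the E-box of the RefSeq promoter printed above.
Stag3, chr5:138280248-138280389, plus strand: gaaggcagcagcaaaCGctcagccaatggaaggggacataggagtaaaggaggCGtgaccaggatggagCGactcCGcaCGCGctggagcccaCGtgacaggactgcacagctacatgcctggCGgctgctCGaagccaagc

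Dppa3 (chr6:122626410-122630272, plus strand; Stella, a maternal factor that protects DNA methylation patterns in the early embryo and binds UHRF1) was the only germline gene at which Uhrf1hepKO had an ATACseq peak within 1 kb. The peak was 279 bp long, was centred 1122 bp upstream of the TSS in intergenic sequence, and reached into the window at its edge, 983 bp from the TSS. Its fold was 4.17, near the list median of 4.05, and its q-value 0.00135. A Uhrf1hepKO H2A.Z peak overlapped it, with its summit 1242 bp upstream, a fold of 5.81 and 24 reads. Neither peak overlapped a WT peak of the same assay, and WT had no peak upstream of Dppa3 within 5 kb. Such a pair is infrequent: of the 4268 Uhrf1hepKO ATACseq peaks without a WT counterpart, 76 (1.78%) overlapped an H2A.Z peak that also had none, and 0.178% of all protein-coding genes had such a pair within 5 kb of the TSS. In the reverse direction, 176 of 4096 WT peaks (4.30%) formed a pair. The pair at Dppa3 was singled out after its values were seen. The ATACseq peak holds 1 CpG, shown in capitals in its sequence (GRCm38, plus strand), and 40.9% of its bases are lower-case in the reference, the mark of masked repeats, as are 80.6% of the H2A.Z peak.
Dppa3, chr6:122625149-122625427, plus strand: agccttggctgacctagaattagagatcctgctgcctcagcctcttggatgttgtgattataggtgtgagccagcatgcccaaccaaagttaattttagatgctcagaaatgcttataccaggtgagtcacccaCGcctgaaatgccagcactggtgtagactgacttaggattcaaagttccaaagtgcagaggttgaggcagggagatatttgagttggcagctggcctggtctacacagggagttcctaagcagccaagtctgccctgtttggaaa

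Inside Dppa3, H2A.Z was present in both genotypes. WT peaks had their summits 1171 and 1411 bp downstream of the TSS, in an intron, with folds of 6.34 and 7.07 and 25 and 28 reads. A single wider Uhrf1hepKO peak covered part of both, with its summit at 1363 bp, a fold of 8.13 and 34 reads. The first WT peak begins 969 bp from the TSS and the Uhrf1hepKO peak 1103 bp from it, so that Dppa3 counted as marked in WT only within 1 kb and in both genotypes within 5 kb. The difference at 1 kb is one of peak edges.

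Spo11 (chr2:172977700-172993576, plus strand) encodes the enzyme that makes the double-strand breaks of meiotic recombination. The Uhrf1hepKO ATACseq list had a peak of 145 bp centred 3762 bp upstream of the TSS, in intergenic sequence, at chr2:172973866-172974010, and no other list had a peak within 5 kb. The peak was a weak one, with a fold of 3.58, below the list median of 4.05, and a q-value of 0.0298. It holds 0 CpGs. The nearest WT ATACseq peak lay 22091 bp from the TSS, at Rae1, and the nearest WT H2A.Z peak 5321 bp.

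Hormad1 (chr3:95559677-95587671, plus strand) encodes a protein of the meiotic chromosome axis and, within 5 kb of the TSS, had a peak in WT only. The H2A.Z summit was 1988 bp upstream, in intergenic sequence, with a fold of 4.39 and 17 reads. Among WT peaks with recovered reads the median was 21 and the lowest value 11. The Uhrf1hepKO list had no H2A.Z peak within 5 kb. Between the annotated ends of the gene, however, there were 3 Uhrf1hepKO H2A.Z peaks and 1 WT peak.

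Dazl (chr17:50279395-50293636, minus strand) encodes an RNA-binding protein required for germ cell development. H2A.Z was present on both sides of its TSS in both livers, without an ATACseq peak within 5 kb. The WT list had 5 peaks there. Those in the first part of the gene, all intronic, had summits 509, 957, 1266 and 1638 bp downstream, with folds of 4.63, 4.63, 5.36 and 4.39 and 18, 18, 21 and 17 reads. The fifth was 1859 bp upstream, with a fold of 3.90 and 15 reads. The Uhrf1hepKO list had 2 peaks, at 967 bp downstream (5.58, 23 reads) and 1843 bp upstream (4.88, 20 reads), each overlapping a WT peak. The WT peak at 509 bp lies in CpG-rich sequence, with 11 CpGs in 101 bp, and had no Uhrf1hepKO counterpart.

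Tex12 (chr9:50556819-50561325, minus strand) encodes a central element protein of the synaptonemal complex. It had a pair of H2A.Z peaks upstream of its TSS, in an intron of Il18, and they were alike in both genotypes. In WT the summits were 350 and 740 bp upstream, with folds of 5.61 and 5.85 and 22 and 23 reads. In Uhrf1hepKO they were 354 and 744 bp upstream, with folds of 6.04 and 5.58 and 25 and 23 reads. The summits of both livers thus fell at almost the same positions. The peaks held at most 1 CpG each, and no ATACseq peak lay within 5 kb.

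Rec8 (chr14:55618037-55625395, plus strand) encodes the meiotic kleisin subunit of cohesin and had 1 H2A.Z peak in each genotype. The WT summit was 2088 bp upstream, with a fold of 4.14 and 16 reads. The Uhrf1hepKO summit was 2134 bp upstream, with a fold of 5.35 and 22 reads. The 2 peaks overlapped and held 0 CpGs.

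Slc25a31 (chr3:40708855-40726096, plus strand), which encodes an ADP/ATP carrier of sperm mitochondria, had peaks of both assays in both livers, distant from its CpG-rich TSS. The ATACseq peaks were centred 3862 bp (WT, fold 4.75) and 3872 bp (Uhrf1hepKO, fold 5.15) upstream, in intergenic sequence. The H2A.Z summits were 3660 bp upstream in WT, with a fold of 7.31 and 29 reads, and 3595 bp upstream in Uhrf1hepKO, with a fold of 5.81 and 24 reads. The ATACseq peaks held 4 CpGs, and the nearest protein-coding TSS was that of Slc25a31. This was the only germline gene with peaks of both assays in both genotypes that lay nearer to its own TSS than to a neighbour's.

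At 4 genes, some or all peaks lay nearer to a neighbouring gene. Tex14 (chr11:87405065-87555823, plus strand), which encodes a protein of the bridges between germ cells, starts 111 bp from Rad51c, a DNA repair gene used in most cells, on the opposite strand. The WT H2A.Z summits were 958, 678 and 347 bp upstream of Tex14, with folds of 7.07, 9.75 and 9.75 and up to 39 reads. The Uhrf1hepKO summits were 704 and 339 bp upstream, with folds of 7.67 and 8.37 and 32 and 35 reads. All of them lay nearer to the TSS of Rad51c, in its exons or introns. These were the highest folds within 1 kb of any germline TSS.

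Tdrd1 (chr19:56826209-56870012, plus strand), a Tudor domain gene of the piRNA pathway, starts 4019 bp from Ccdc186, and its peaks were at the Ccdc186 TSS. The ATACseq peaks were 4035 bp (WT, fold 5.33) and 3947 bp (Uhrf1hepKO, fold 6.27) upstream of Tdrd1, and 3 H2A.Z peaks in each genotype had folds of 4.87, 6.34 and 8.04 in WT and 3.95, 8.13 and 7.20 in Uhrf1hepKO. Tdrd9 (chr12:111971559-112068854, plus strand), a Tudor domain helicase gene, starts 4582 bp from Atp5mpl, which had an ATACseq peak at fold 5.06 in WT and 5.09 in Uhrf1hepKO. The strongest H2A.Z peaks in the Tdrd9 window were also there, with folds of 11.0 (WT, 44 reads) and 11.9 (Uhrf1hepKO, 50 reads). Between Atp5mpl and Tdrd9, WT had H2A.Z summits 2616, 2014 and 1075 bp upstream of Tdrd9, with folds of 4.39, 4.39 and 4.87 and 17, 17 and 19 reads, where Uhrf1hepKO had none.

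Counting only peaks that lay nearer to the TSS of the gene than to that of any other protein-coding gene lowered the counts. Within 1 kb, 1 germline gene had such an ATACseq peak in WT and 1 in Uhrf1hepKO (22.7% and 20.7% of all genes), and 3 and 2 had such an H2A.Z peak (43.7% and 42.1%). Within 5 kb the counts were 2 and 3 for ATACseq (25.2% and 23.2%) and 7 and 5 for H2A.Z (48.8% and 47.1%). A neighbour was no guarantee of a peak. Of the 6 germline genes with another protein-coding TSS within 5 kb, Mov10l1 and Smc1b had no peak, although Smc1b starts 114 bp from Ribc2. The nearest peak to Smc1b in any list was 94336 bp away.

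The distance to the nearest peak was long for most of the set. Its median was 49.5 kb in WT and 50.4 kb in Uhrf1hepKO for ATACseq, against 32.1 and 34.9 kb for all protein-coding genes. For H2A.Z it was 13.8 kb in WT and 21.1 kb in Uhrf1hepKO, against 3.08 and 4.29 kb. The most distant were Asz1 (415 kb) and Dazl (865 kb) from a WT and a Uhrf1hepKO ATACseq peak, and Piwil1 (306 kb) from an H2A.Z peak in either list. Just beyond 5 kb were H2A.Z peaks 5374 bp (WT, fold 8.29) and 5376 bp (Uhrf1hepKO, fold 8.60) from Hormad2, and peaks of all 4 lists between 5715 and 6045 bp from Dnajb3, nearest to the TSS of the liver enzyme gene Ugt1a1.

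**Figure D4:**
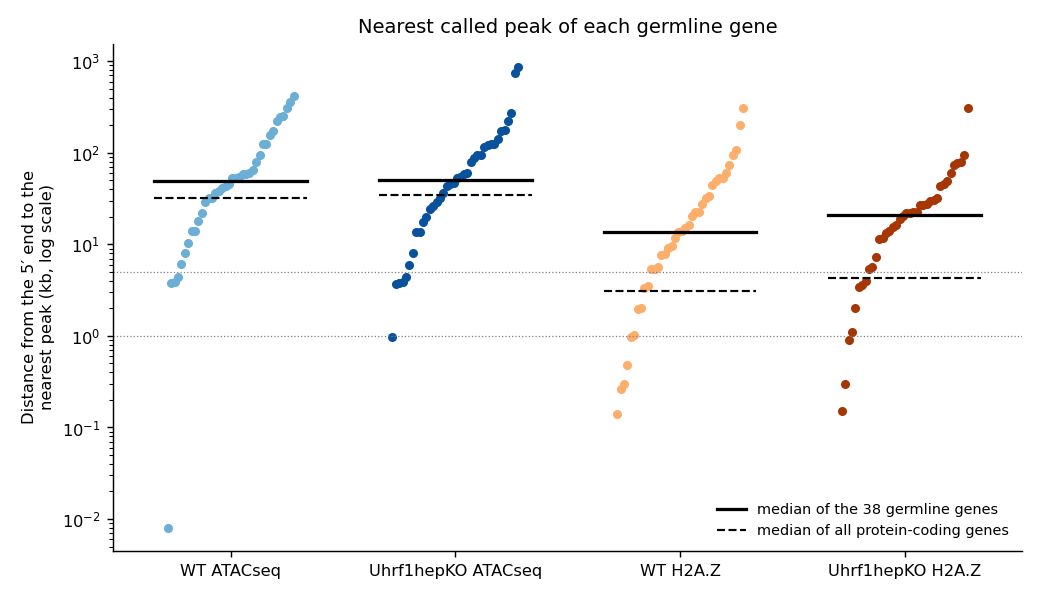
Distance in kb (log axis) from the TSS of each of the 38 germline genes (points, in order of distance) to the edge of the nearest peak of each list. Solid lines are the medians of the germline genes, dashed lines those of all protein-coding genes, and dotted lines mark 1 and 5 kb; the germline medians of 49.5, 50.4, 13.8 and 21.1 kb lie above the medians of all genes in each list.

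Within the gene bodies, the H2A.Z shares lay near those of all protein-coding genes. A peak lay between the annotated ends of 16 germline genes in WT and 15 in Uhrf1hepKO, which is 42.1% and 39.5%, against 46.2% and 43.4% of all protein-coding genes. The germline genes were longer, with a median of 44.2 kb against 17.4 kb, and the shares are not adjusted for length. The genes were 13 in common, with Slc25a31, Spo11 and Tdrd9 in WT only and Dmc1 and Stag3 in Uhrf1hepKO only. The shares of all genes with a gene body peak in WT only or in Uhrf1hepKO only were not computed. These differences are therefore not read as a result about the germline genes. ATACseq peaks in the gene body were found at 2 genes in each genotype (5.26% against 30.0% in WT and 28.4% in Uhrf1hepKO), Stag3 and Tex14 in WT and Tdrd1 and Tex14 in Uhrf1hepKO.

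Related lists of genes that are not in the set were compared with the same shares of all genes within 1 kb, 26.4% (WT) and 24.1% (Uhrf1hepKO) for ATACseq and 46.0% and 44.5% for H2A.Z. Of 18 further genes of germ cell RNA and the piRNA pathway, 2 had an ATACseq peak within 1 kb in each genotype (11.1%), and 5 in WT (27.8%) and 6 in Uhrf1hepKO (33.3%) had an H2A.Z peak. Of 24 further meiosis genes, 5 had an ATACseq peak in each genotype (20.8%), and 8 in WT (33.3%) and 10 in Uhrf1hepKO (41.7%) an H2A.Z peak. Within 1 kb both lists were below all genes in each of the 4 peak lists, the meiosis genes only slightly so in Uhrf1hepKO. This did not hold for H2A.Z within 5 kb, where the piRNA list had 50.0% in each genotype. The meiosis list had 45.8% in WT and 54.2% in Uhrf1hepKO there, against 52.8% and 51.0% of all genes. No interval was computed for these lists. Peaks in 1 genotype only were found for H2A.Z in Uhrf1hepKO at Boll, a relative of Dazl (fold 3.72), Mei4, required for meiotic breaks (4.42), and Terb1, which tethers meiotic telomeres (3.49). Boll is 5.56% of the piRNA list, and Mei4 and Terb1 are 8.33% of the meiosis list, where 1.77% of all genes had this pattern. Of 17 genes of the repressors of germline genes, including subunits of the E2F6 complex and histone and DNA methyltransferases, 5 had an ATACseq peak in each genotype (29.4%), and 14 in WT (82.4%) and 13 in Uhrf1hepKO (76.5%) an H2A.Z peak. In this list E2f6 had an ATACseq peak in WT only (fold 3.55, q-value 0.0603), L3mbtl2 had one in Uhrf1hepKO only (4.57), and Ring1 had an H2A.Z peak in WT only (4.39). These patterns were present at 6.16%, 3.84% and 3.30% of all genes, and 1 gene of this list is 5.88%. Within 5 kb, Ring1 had an H2A.Z peak in both genotypes. Counts of 1 or 2 genes are too few to be read as a result about these lists. Uhrf1 itself had a peak of both assays within 1 kb in both genotypes. The TSS is therefore no check of the deletion here.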

How the data were processed

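Reads were placed by the authors on GRCm38.p4 with BWA-MEM and handled with PICARD (duplicate removal is given for ChIPseq). Each library was then passed to MACS2 on its own, as broad peaks for ATACseq, and the paper gives a p setting of 0.05. Read trimming and quality tools named per the labels were Trimmomatic and FastQC 0.11.5. The MACS2 version, its control and any shift of ATACseq reads are not given in the sources used here. The deposited lists hold a display score, a fold enrichment ratio (averaged over the region for ATACseq, at the summit for H2A.Z), −log10 p- and q-values and, for H2A.Z, another value, the summit position. Folds are not scaled between libraries and were not compared as changes. The highest q-value was 0.0997 and 0.0993 in the WT and Uhrf1hepKO ATACseq lists and 0.0500 and 0.0489 in the H2A.Z lists. Limits of this size on the q-value are stricter than the stated p setting, so the deposited lists were cut more strictly than the paper gives.

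Chromosomes 1 to 19, X and Y were kept, and peaks were set against GENCODE vM21 (GRCm38), with the centre (ATACseq) or summit (H2A.Z) as the position. Reads at H2A.Z summits were recovered from the even steps of the fold (0.244 and 0.232), on which 94.2% and 91.9% of peaks lay within 0.02 of a step, and for 99.4% and 99.5% of these a Poisson p-value computed from the reads came within 0.05 (log10 scale) of the deposited value. Exact (Clopper-Pearson) 95% intervals cover counting error only. No test was run, since each condition has 1 library. Sequences are from the RefSeq genome and promoter tables of GRCm38.p6, which has the same chromosome coordinates. The germline genes and the other lists were chosen with earlier results of these data known. All germline genes are named, with the position and fold of each peak for those with a peak within 1 kb. For those with peaks only at 1 to 5 kb, selected values are given. Widths, q-values and the nearest gene are given for some peaks only. Genes of the piRNA, meiosis and repressor lists are named where they had a peak in 1 genotype only within 1 kb. Uhrf1, as the deleted gene, and marker genes with a peak are named as checks. Six6os1 of the meiosis list was not found by that symbol. The overlap step was tested on simulated peaks. The tools were scipy 1.17.1, pandas 2.3.3, numpy 2.4.6 and matplotlib 3.10.9, under Python 3.11.15.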

Additional observations from a re-analysis of the deposited data

How the results depend on the processing

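Counts of germline genes with a peak were recomputed under 7 alternatives and under 1 that was chosen after seeing the data, and 94 of 120 values stayed within 1.5 times the count given in the report. The counts were compared and not the genes, which could change. Shares of all genes were recomputed only for the TSS of any annotated transcript and for peaks nearest to the own TSS. For the other rules, the comparison with all genes was not repeated. WT-only H2A.Z within 1 kb went from Stag3 and Dppa3 to Stag3 and Tex15 (any transcript) or Stag3 and Dazl (500 bp). Within 5 kb it went from Hormad1 and Stag3 to Spo11 and Hormad1 (any transcript) or Hormad1 and Tdrd9 (nearest to the own TSS). With the TSS of any annotated transcript, H2A.Z counts rose to 8 (WT) and 6 (Uhrf1hepKO) within 1 kb and to 16 and 14 within 5 kb. With the centre or summit inside the window, Uhrf1hepKO ATACseq peaks within 1 kb, in all and in that genotype only, fell to 0, and WT-only H2A.Z to 1. When the 1 kb window was narrowed to 500 bp, Uhrf1hepKO ATACseq, in all and in that genotype only, fell to 0. When the 5 kb window was narrowed to 2 kb, ATACseq fell to 1 in WT and 1 in Uhrf1hepKO, Uhrf1hepKO-only ATACseq to 1, and Uhrf1hepKO H2A.Z to 4. With q-values of 0.01 or lower, Uhrf1hepKO-only ATACseq within 5 kb fell to 1. With folds at or above the list median, within 1 kb WT H2A.Z fell to 3, WT-only H2A.Z to 1 and Uhrf1hepKO-only H2A.Z rose to 1, and within 5 kb Uhrf1hepKO-only ATACseq was 1, Uhrf1hepKO-only H2A.Z 1 and WT-only H2A.Z 0. With no peak of the other genotype within 10 kb, WT-only H2A.Z within 1 kb was 1. Counting only peaks nearest to the own TSS (chosen after seeing the data) gave 3 for WT H2A.Z and 1 for WT-only H2A.Z within 1 kb, and within 5 kb 2 and 3 for WT and Uhrf1hepKO ATACseq and 5 for Uhrf1hepKO H2A.Z. Equal numbers of peaks in both genotypes moved no count by more than 1.5 times. Each rule changes which peaks or starts are counted, and the reason for each move was not tested.

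No paired analysis was possible because each condition has 1 library and the labels carry no replicate numbers. The lists hold called peaks only, total reads were not used here, and with 1 library per condition the spread between mice is unknown.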
